A study of Rattus norvegicus with 12 samples.

Results

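The genes described here are those of the cytosolic ribosomal proteins in CRI-G1 cells, an insulin-secreting line from a rat islet cell tumour. They were taken as the probe sets of the array with a single gene symbol of the Rpl, Rps or Rplp type or the symbol Rpsa, leaving out the Rps6 kinases. This gave 57 probe sets of 31099, for 50 gene symbols of 14218. RNA was hybridized to 12 Affymetrix Rat 230 2.0 arrays, 6 from CRI-G1-RS cells and 6 from CRI-G1-RR cells. CRI-G1-RS is the rotenone-sensitive line, a single subclone that arose from CRI-G1-RR cells in long dense culture, and CRI-G1-RR is the rotenone-resistant original clone. Both lines were untreated, were grown in the same high-glucose medium with serum and came from 6 passages each, so the comparison is of 1 subclone with its parent clone. Rotenone blocks complex I of the mitochondrial respiratory chain.

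A ribosome is built from a small subunit, which holds the mRNA and reads its codons, and a large subunit, which joins the amino acids, with a stalk that recruits translation factors. The protein subunits are needed in equal number and are made from some of the most abundant mRNAs of a cell. These mRNAs begin with a run of pyrimidines, the terminal oligopyrimidine or TOP motif, through which mTORC1 and Larp1 control their translation. In insulin-secreting cells these ribosomes make the hormone precursor on the endoplasmic reticulum. Subunits that are left unassembled can bind Mdm2, the ubiquitin ligase of p53, which links ribosome assembly to the p53 pathway.

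The 50 symbols fell into 13 small subunit genes including Rpsa, 28 large subunit genes, the stalk gene Rplp0, 6 paralogs (Rpl3l, Rpl7l1, Rpl26l1, Rpl39l1, Rps27l and Rps4y2) and 2 symbols of pseudogenes (Rpl37-ps2 and Rps4x-ps1). Subunits whose probe sets carry several symbols or none fall outside this set. A further 36 probe sets carry several symbols with a ribosomal protein among them, and no gene is named from these. Probes for ribosomal protein genes can also bind the many processed pseudogenes of the family, so a probe set may hold signal from near-identical copies.

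The sequences around the annotated start of transcription are shown because the TOP motif lies there. RefSeq windows on the GRCr8 assembly were found for 43 of the 50 symbols. Each line below gives the 15 bases before and the 15 bases from the annotated start, 5′ to 3′, and the capitals mark the longest run of C and T. The first 7 are genes with mean signals of at least 1000 that differed between the lines (Rpl27, also among these, is not shown), the next 3 are genes of strong signal that did not pass the test, and the last 3 are paralogs.
Rps3 (chr1:163195762-163195791, minus strand): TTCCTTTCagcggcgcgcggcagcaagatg
Rpl37a (chr9:81748076-81748105, plus strand): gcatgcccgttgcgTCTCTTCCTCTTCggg
Rpl5 (chr14:1995211-1995240, minus strand): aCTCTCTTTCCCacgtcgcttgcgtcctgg
Rps15a (chr1:181860270-181860299, minus strand): cggcgTTTTCTTTCCacagtcaccatggtg
Rps6 (chr5:106420526-106420555, minus strand): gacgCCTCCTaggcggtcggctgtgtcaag
Rpl18 (chr1:105325255-105325284, plus strand): TCTggacctggtctagcaggaggcgccatc
Rpl24 (chr11:58128391-58128420, minus strand): gaatttagggaggagaTTCTCTaccctata
Rps3a (chr2:173827028-173827057, minus strand): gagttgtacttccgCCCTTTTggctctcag
Rplp0 (chr12:46718376-46718405, minus strand): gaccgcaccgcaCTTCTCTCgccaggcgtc
Rpl35a (chr11:81235007-81235036, minus strand): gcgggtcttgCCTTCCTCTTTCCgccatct
Rps27l (chr8:76443643-76443672, plus strand): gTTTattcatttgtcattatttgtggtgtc
Rpl7l1 (chr9:21695703-21695732, plus strand): agctgcagatgcattgtgggaagCCTTTaa
Rpl3l (chr10:14258431-14258460, plus strand): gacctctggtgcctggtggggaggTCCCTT

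The motif searched was a C as the first transcribed base followed by at least 4 bases that are each C or T, on the transcribed strand. It stood at the annotated start of 12 of the 43 ribosomal protein windows (27.9%), and at 881 of the 33469 windows of all RefSeq genes (2.63%). A run of at least 8 pyrimidines anywhere in the 30 bases, which can overlap the first motif, was in 25 of the 43 (58.1%) and in 3831 of all windows (11.4%). In Rps3, Rpl5, Rps15a, Rps6, Rpl18 and Rps27l the marked pyrimidine run ends before the annotated start. The run spans the start in Rpl37a, Rps3a, Rplp0 and Rpl35a, and begins after it in Rpl24, Rpl7l1 and Rpl3l. Among members with a mean signal of at least 1000, the start motif was in 1 of 7 windows of genes that differed between the lines and in 9 of 27 windows of genes that did not pass the test. The long run was in 4 of those 7 and in 18 of those 27. A start site annotated a few bases away would change these matches, and the start used in CRI-G1 cells was not measured.

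The signals used below are linear probe set intensities brought to a common distribution by quantile normalization, with no unit of their own. The test is limma on log2(signal + 16), and a log2 fold change is the mean of CRI-G1-RS minus that of CRI-G1-RR. The brightest probe set stands for each gene, and levels are compared only between arrays, since probe sets differ in how brightly they bind. For 38 of the 50 genes the mean signal was at least 1000, with a range from 3425 to 7959, which put them between the 98.8 and the 99.98 percentile of all probe sets. The other members were 3 with mean signals between 100 and 1000 and 9 under 100. Pairs of CRI-G1-RS arrays correlated at 0.979 to 0.987 over all probe sets, pairs of CRI-G1-RR arrays at 0.980 to 0.987, and pairs with 1 array of each line at 0.953 to 0.965. The islet markers were at or above a signal of 100 for all 11 measured, while all 6 acinar markers were under 100. Ins1 was at 6380 to 7228 on CRI-G1-RS arrays and 6698 to 7149 on CRI-G1-RR arrays. Of the fibroblast markers 1 of 6 was at or above 100 (Pdgfra, mean signal 118), of the macrophage markers 1 of 5 (Aif1, 107) and of the endothelial markers 0 of 3. Pdgfra was higher in CRI-G1-RS cells (log2 fold change 0.74, limma adjusted p = 4.85e-04).

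Most cytosolic ribosomal protein genes had nearly the same signal in both lines. By limma with Benjamini-Hochberg adjustment over all probe sets, 8 of the 50 genes had higher and 5 had lower signals in the RS line (26%), where 39.2% of all genes passed (21% higher and 18.3% lower). By probe set, 9 of 57 were higher and 5 lower (24.6%), beside 31.7% of all probe sets. The 50 genes had a median log2 fold change of 0.02, as did all genes, but the members lay closer together: their median change in either direction was 0.08, and that of all genes 0.21. In RNA from whole cultures, fewer cells of a type and less RNA per cell cannot be told apart.

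The narrow spread was clearest among the 38 genes with signals of at least 1000. Of these, 6 were higher and 2 lower (21.1%). Of the other 1882 genes with signals of at least 1000, 56.2% passed (29.7% higher and 26.5% lower). The 1882 genes were dimmer, with a median signal of 1711 against 5680 for the 38, so the comparison is not matched for brightness. The SD of the log2 fold changes was 0.12 over the 38 genes and 0.52 over the 1882. The change was under 1.25-fold in 37 of the 38, and the 95% confidence interval lay within 1.25-fold up or down in 36, against 852 of the 1882. The spread and intervals given here are those after quantile normalization. With median centring the standard errors of Rplp0 and Rpl37a were both 0.08 against 0.05, so the intervals are wider there. No gene of the 38 reached 1.5-fold, whereas 242 of the 1882 did so and passed the test. Their median standard error was 0.05 and that of the 1882 was 0.06. The members' signals are close to the top of the array's range, where 9675.9 was the highest mean of any probe set, and the part that this had in the narrow spread was not tested.

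**Figure D1:**
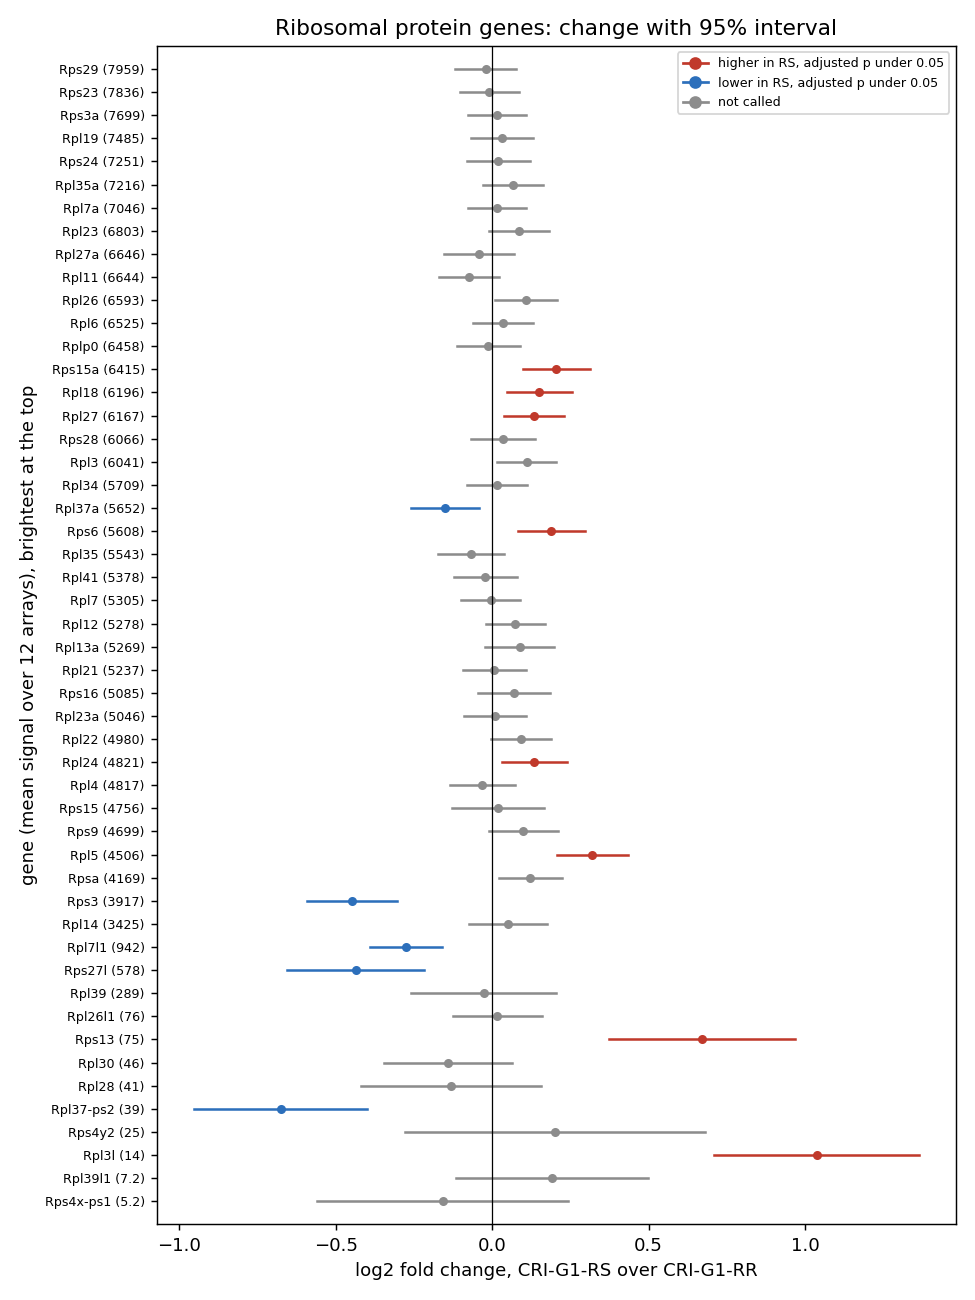
Log2 fold change, CRI-G1-RS over CRI-G1-RR, for the 50 ribosomal protein genes (points) with 95% confidence intervals from limma (bars). Values are after quantile normalization, and genes are ordered by mean signal, which is given in brackets. Red genes were higher and blue genes lower at an adjusted p under 0.05, and the 38 upper genes lie near 0 except Rps3 and Rpl5, while the widest intervals are those of the dim probe sets at the bottom.

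Rps3, a small subunit protein at the channel where the mRNA enters and also reported to act in DNA repair, had the largest negative change of the 38. Its signal was 2896 to 3553 with a median of 3296 on CRI-G1-RS arrays, and 4179.5 to 5018 with a median of 4440.0 on CRI-G1-RR arrays. Every CRI-G1-RS array was below every CRI-G1-RR array. The log2 fold change was -0.45 (standard error 0.07, limma adjusted p = 1.57e-04), and it remained past the threshold with each of the other scalings (adjusted p = 1.95e-04 and 3.26e-04).

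Rpl37a, a zinc-binding protein of the large subunit, was the only other gene of the 38 that passed as lower. Its arrays ran from 5040.4 through a median of 5304 to 5619 in CRI-G1-RS cells, and from 5691 through 5832 to 6291 in CRI-G1-RR cells. The groups did not overlap, and the log2 fold change was -0.15 (standard error 0.05, limma adjusted p = 0.0351). The adjusted p rose to between 0.0508 and 0.0774 when CRI-G1-RS replicate 1, 3, 4 or 6 or CRI-G1-RR replicate 3, 4 or 5 was left out.

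Rpl5, which forms a complex with Rpl11 and 5S rRNA that can bind Mdm2, had the largest positive change of the 38. Its signals were 4649 to 5142 (median 5045) on CRI-G1-RS arrays, against 3795 to 4189.5 (median 4014) on CRI-G1-RR arrays, with no overlap. The log2 fold change was 0.32 (standard error 0.05, limma adjusted p = 3.59e-04). Its partner Rpl11 had 6379.5 to 6546 (median 6463) on CRI-G1-RS arrays and 6509.9 to 7023 (median 6906) on CRI-G1-RR arrays, and these overlapped. The log2 fold change of Rpl11 was -0.07 (standard error 0.04, limma adjusted p = 0.251).

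Rps15a, a small subunit protein, had 6600.4 to 7041 (median 6896) on CRI-G1-RS arrays and 5474 to 6221 (median 6021) on CRI-G1-RR arrays. Rps6, the small subunit protein that S6 kinases phosphorylate downstream of mTORC1, had 5840.4 to 6317 (median 5984) on CRI-G1-RS arrays and 5049.7 to 5553 (median 5189.6) on CRI-G1-RR arrays. Neither gene's groups overlapped, and the log2 fold changes were 0.20 and 0.19 (limma adjusted p = 0.006 and 0.009). With the arrays scaled only as deposited, the log2 fold changes were 0.12 and 0.11 and neither passed (limma adjusted p = 0.29 and 0.291).

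**Figure D2:**
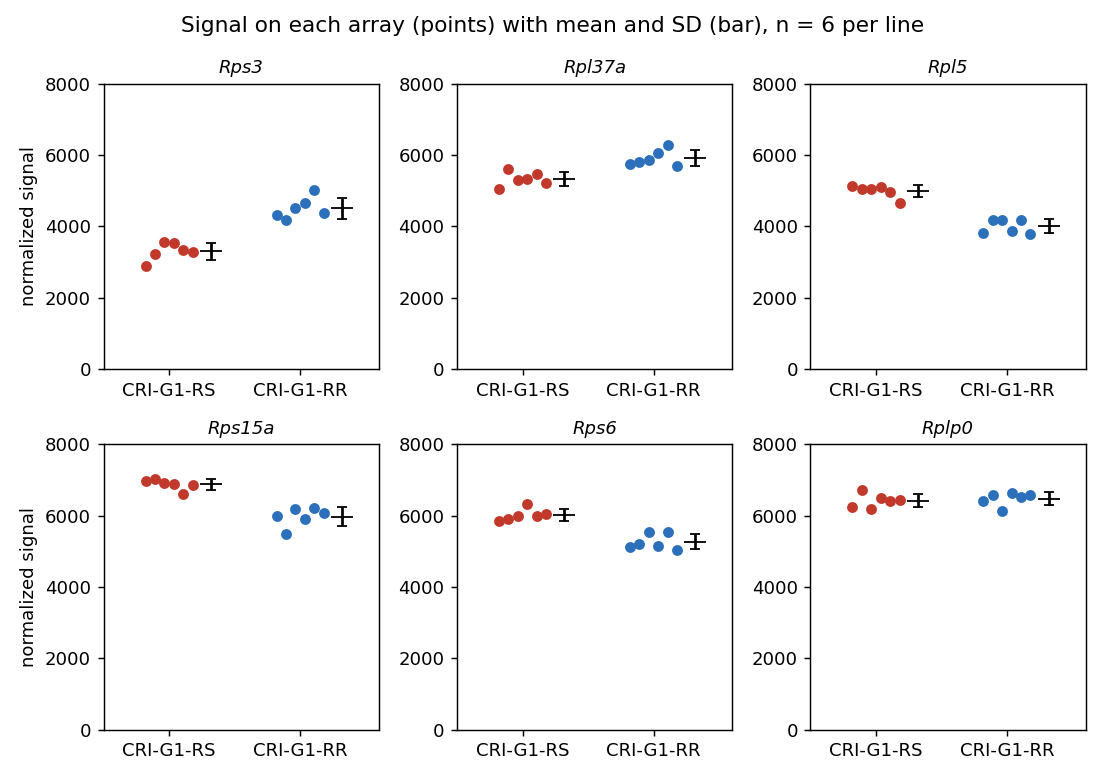
Normalized signal on each array for 6 ribosomal protein genes, with points for the 6 CRI-G1-RS arrays (red) and the 6 CRI-G1-RR arrays (blue) and black bars for mean and SD. The lines do not overlap for Rps3, Rpl37a, Rpl5, Rps15a and Rps6, whereas Rplp0 lies between 6127 and 6719.5 on all 12 arrays.

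The 3 large subunit genes Rpl18, Rpl24 and Rpl27 also passed as higher, by smaller amounts. Rpl18 had 6291 to 6698 on CRI-G1-RS arrays and 5602 to 6262 on CRI-G1-RR arrays, a log2 fold change of 0.15 (limma adjusted p = 0.0281). Rpl24, whose protein forms a bridge to the small subunit, had 4813 to 5209.99 on CRI-G1-RS arrays and 4345 to 4787 on CRI-G1-RR arrays, a log2 fold change of 0.14 (limma adjusted p = 0.0496). Rpl27 had 6379.5 to 6546 on CRI-G1-RS arrays and 5691 to 6106 on CRI-G1-RR arrays, a log2 fold change of 0.13 (limma adjusted p = 0.0362). The groups of all 3 were apart, but all 3 calls were lost with both other scalings. With the deposited scaling alone the log2 fold changes of Rpl18, Rpl24 and Rpl27 were 0.06, 0.07 and 0.04 (limma adjusted p = 0.619, 0.358 and 0.701), and with median centring they were 0.04, 0.05 and 0.02 (0.793, 0.58 and 0.857). Rpl18 missed the threshold without CRI-G1-RS replicate 3 or 5 or CRI-G1-RR replicate 1, 2 or 3 (adjusted p between 0.0522 and 0.0611), and Rpl24 without any array but CRI-G1-RS replicate 2 (0.0509 to 0.107). Rpl27 missed it without any array but CRI-G1-RS replicate 2 or CRI-G1-RR replicate 3 or 5 (0.0507 to 0.0759).

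Groups that do not overlap were more frequent than calls among these genes. Of the 50 genes, 17 had all arrays of one line beyond all arrays of the other, with CRI-G1-RS above in 13 and below in 4, where 27.7% of all genes did so (14.9% above and 12.8% below). For such a gene the exact two-sided permutation test gives 0.00216, the smallest value that 6 arrays against 6 allow. Rpl22, Rpl26, Rpl3, Rpl35a and Rpsa did not overlap but missed the adjusted threshold, with log2 fold changes of 0.09, 0.11, 0.11, 0.07 and 0.12 and limma adjusted p of 0.148, 0.0933, 0.0728, 0.292 and 0.0634. Overlap and the permutation test were computed after quantile normalization only. With the deposited scaling the log2 fold changes of these genes, in the same order, were 0.04, 0.02, 0.02, -0.02 and 0.04. Rpl3 lines the peptidyl transferase centre, and Rpsa, a small subunit protein, is also known as the laminin receptor.

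By subunit, 3 of 13 small subunit genes were higher and 1 lower (30.8%), with a median log2 fold change of 0.03, and of 28 large subunit genes 4 were higher and 1 lower (17.9%), with a median of 0.02, beside 39.2% of all genes. With the deposited scaling 1 gene of each subunit was higher and 1 lower, and both medians were -0.04. After quantile normalization and with signals of at least 1000, which leaves out the dim Rps13, 2 of 12 small subunit genes were higher and 1 lower (25%). Of the 26 large subunit and stalk genes at that level, 4 were higher and 1 lower (19.2%). The stalk gene Rplp0, often used as a reference gene in expression assays, had 6202 to 6719.5 (median 6431) on CRI-G1-RS arrays and 6127 to 6639 (median 6546) on CRI-G1-RR arrays. Its log2 fold change was -0.01 with a 95% interval from -0.11 to 0.09 (limma adjusted p = 0.885). The 3 genes of highest signal were Rps29, Rps23, a protein of the decoding centre, and Rps3a. Rps29 had 7534 to 8338 on CRI-G1-RS arrays and 7951 to 8114 on CRI-G1-RR arrays, and its interval was -0.12 to 0.08. The intervals of Rps23, from -0.10 to 0.08, and of Rps3a, from -0.08 to 0.11, were as narrow. These intervals hold for quantile normalization only. With median centring the log2 fold changes of Rplp0, Rps29, Rps23 and Rps3a were -0.12, -0.14, -0.12 and -0.09, outside the intervals. None of them passed (limma adjusted p from 0.183 to 0.407), and the standard error of Rplp0 was 0.08 against 0.05.

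The sign of these small changes depended on the scaling of the arrays. Over the 38 genes the median log2 fold change was 0.03 after quantile normalization and -0.04 with the deposited scaling alone, and -0.06 after centring each array on its median. Accordingly 27 of the 38 were positive after quantile normalization, but 15 with the deposited scaling and 11 with median centring. With the deposited scaling, 3 of the 50 genes passed as higher (Rpl5, Rps13 and Rpl3l) and 5 as lower, beside 38.7% of all genes in either direction. Rps3, Rpl37a and Rpl5 kept their direction and passed under each of the 3 scalings.

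**Figure D3:**
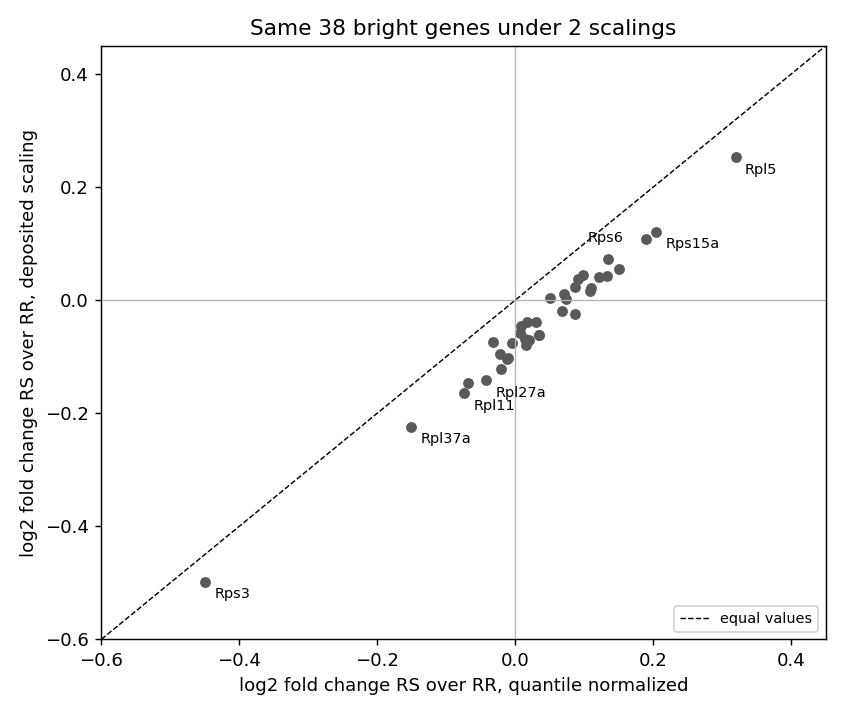
Log2 fold change of the 38 ribosomal protein genes with mean signal of at least 1000 after quantile normalization (horizontal axis) and with the deposited scaling alone (vertical axis), 1 point per gene. All points lie below the dashed line of equal values, so that 27 genes are positive on the horizontal axis and 15 on the vertical axis, while Rps3 and Rpl5 stay at the ends.

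The members moved up and down together from array to array when only the deposited scaling was used. The median log2 signal of the 38 genes lay between 12.35 and 12.69 on CRI-G1-RS arrays (median 12.45) and between 12.44 and 12.64 on CRI-G1-RR arrays (median 12.51). The highest value was that of CRI-G1-RS replicate 2 and the lowest that of CRI-G1-RS replicate 1, so the spread within CRI-G1-RS covered that of CRI-G1-RR. The other genes of at least 1000 had array medians from 10.73 to 10.76 in CRI-G1-RS cells and from 10.72 to 10.79 in CRI-G1-RR cells. They were dimmer, with a median signal of 1711, and whether genes as bright as the members moved alike was not tested. The highest signal of an array ran from 8738 to 11366 in CRI-G1-RS cells and from 9465 to 10529 in CRI-G1-RR cells. In CRI-G1-RS cells that signal was also highest on replicate 2, and it was lowest on replicate 3. After quantile normalization the members' medians were 12.50 to 12.54 on CRI-G1-RS arrays and 12.46 to 12.53 on CRI-G1-RR arrays, which overlap. The members' probe sets made up 2.11 to 2.58% of the summed deposited signal of a CRI-G1-RS array (median 2.22%) and 2.22 to 2.45% of that of a CRI-G1-RR array (median 2.28%). The direction of the family as a whole thus depended on the scaling.

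Of the 6 paralogs, 1 was higher and 2 were lower (50%), where 39.2% of all genes passed. Rpl7l1, which in human cells acts in ribosome assembly, had 799 to 928 (median 842) on CRI-G1-RS arrays and 993 to 1072 (median 1029.7) on CRI-G1-RR arrays. Its log2 fold change was -0.28 (standard error 0.05, limma adjusted p = 0.0012), while a second probe set gave -0.10 and did not pass (limma adjusted p = 0.344). Rpl7 itself had a log2 fold change of -0.01 (limma adjusted p = 0.949), with a dimmer probe set at -0.50 (limma adjusted p = 0.0687). Rps27l, a paralog of Rps27 that p53 induces in human cells, had 397 to 582 (median 495) on CRI-G1-RS arrays and 577 to 761 (median 663) on CRI-G1-RR arrays. Only the ends of these groups overlapped, and the log2 fold change was -0.44 (standard error 0.10, limma adjusted p = 0.0044).

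Rpl3l, a muscle paralog of Rpl3, had the highest fold change of the 50 symbols with 16 added, but a very low signal. It had 7.34 to 32.8 (median 25.6) on CRI-G1-RS arrays and 2.07 to 3.98 (median 3.06) on CRI-G1-RR arrays, a log2 fold change of 1.04 (standard error 0.15, limma adjusted p = 1.39e-04). The size depends on the amount added to each signal: it was 2.53 with 1 added and 0.39 with 64 added, where Rps13 at 0.43 was higher, and whether signals of this size are above background was not measured here. Rps13 was represented by a dim probe set with 80.3 to 117 on CRI-G1-RS arrays and 39.9 to 75.0 on CRI-G1-RR arrays, and its log2 fold change was 0.67 (limma adjusted p = 0.00187). Rpl37-ps2, a pseudogene symbol, had 21.2 to 28.4 on CRI-G1-RS arrays and 29.9 to 63.1 on CRI-G1-RR arrays, with a log2 fold change of -0.68 (limma adjusted p = 0.0011). Rpl26l1, Rpl28, Rpl30 and Rps4y2 had mean signals of 24.5 to 76.0 and did not pass, nor did the 2 dimmest symbols, Rpl39l1 at 2.51 to 17.6 on CRI-G1-RS arrays and 1.95 to 6.80 on CRI-G1-RR arrays, and Rps4x-ps1 at 1.15 to 13.6 on CRI-G1-RS arrays and 1.04 to 15.5 on CRI-G1-RR arrays. Rpl39, with a mean signal of 289, did not pass either (log2 fold change -0.03, limma adjusted p = 0.887).

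Of the 6 genes with several probe sets, none had probe sets that passed in opposite directions. Rps24, a small subunit protein with alternatively spliced ends, had a log2 fold change of 0.02 by its brightest probe set (limma adjusted p = 0.806) and of 0.33 by a dimmer one at 340.4 to 498 on CRI-G1-RS arrays and 275 to 378 on CRI-G1-RR arrays (limma adjusted p = 0.0287). All 3 probe sets of Rpsa missed the threshold, with log2 fold changes of 0.12, 0.17 and 0.01. The 36 probe sets that carry several symbols gave 7 higher and 5 lower (33.3%), with a median log2 fold change of 0.05.

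The 38 genes were also set beside their surroundings in the genome, using for each the 50 nearest measured genes outside the family with mean signals of at least 100 in the GRCr8 gene order. The neighbours' median log2 fold change was -0.36 around Rps3 and -0.41 around Rpl37a. It was 0.66 around Rpl5, 0.29 around Rpl24, 0.20 around Rps15a and 0.12 around Rps6. Around Rpl18 and Rpl27 it was 0.06 and 0.01, below their own values of 0.15 and 0.13. These medians have the sign of the gene itself, as was so for 30 of the 38 genes after quantile normalization. The sign matched for 24 with the deposited scaling alone and 26 with median centring, applied to gene and neighbours alike. Across the 38 genes Pearson's r between a gene and its neighbours was 0.68 and Spearman's rho 0.446, and without Rps3 and Rpl5 they were 0.49 and 0.348 over 36 genes. With either of the other scalings they were 0.722 and 0.586 over the 38. This is a description, since all genes share the same 12 arrays and members near each other, such as Rpl14 and Rpsa, share neighbours. Rpl21 and Rpl7 had neighbours at 0.30 and 0.23 with own values of 0.01 and -0.01, and Rps27l had neighbours at -0.01. The cause of these regional differences was not tested.

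**Figure D4:**
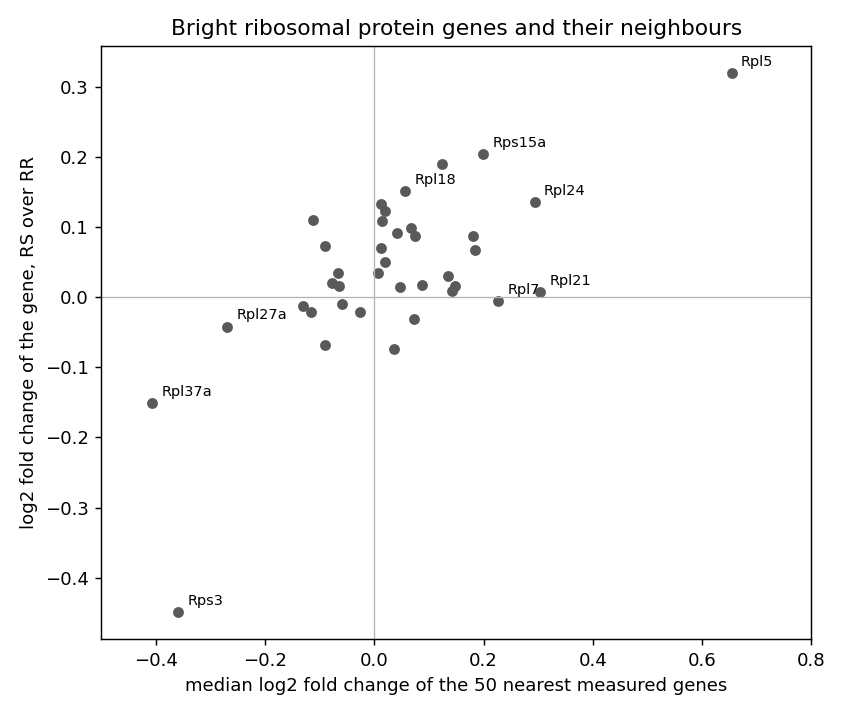
Log2 fold change (CRI-G1-RS over CRI-G1-RR) of the 38 ribosomal protein genes with mean signal of at least 1000, vertical axis, against the median of the 50 nearest measured genes, horizontal axis, 1 point per gene. Rps3 and Rpl37a lie at the lower left and Rpl5 at the upper right, and 30 of the 38 share the sign of their neighbours with this scaling (24 with the deposited scaling alone).

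The mitochondrial ribosomal proteins, which build the separate ribosome of that organelle, were called in both directions, as all genes were. Of 73 genes 18 were higher and 17 lower (47.9%, beside 39.2% of all genes), with a median log2 fold change of -0.01 and an SD of 0.30, against an SD of 0.24 over all 50 cytosolic members. Mrpl42 had 713 to 785 on CRI-G1-RS arrays and 1425 to 1811 on CRI-G1-RR arrays (log2 fold change -1.06, limma adjusted p = 9.69e-08), and Mrpl1 had 349.9 to 477 on CRI-G1-RS arrays and 195 to 237 on CRI-G1-RR arrays (0.83, limma adjusted p = 1.13e-05). The neighbours of these genes had medians of -1.05 and 0.61.

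Other mRNAs that start with a TOP motif were measured for 13 of 19 genes named, and 3 were higher and 4 lower (53.8%, beside 39.2% of all genes), with a median of -0.02. With the deposited scaling 1 was higher and 4 were lower. Nap1l1, a histone chaperone, had a log2 fold change of -0.96 (limma adjusted p = 1.43e-07) with neighbours at -0.92, and Eef1d, a subunit of the elongation factor 1 exchange complex, had -0.46 (8.95e-05). Hnrnpa1, a splicing factor, had 0.41 (1.87e-04). The neighbours of Eef1d and Hnrnpa1 had medians of -0.19 and -0.17. Eef2, the elongation factor that moves the ribosome along the mRNA, had 0.19 (limma adjusted p = 0.0196), which was 0.217 with the deposited scaling.

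Factors that assemble ribosomes included more genes that rose than fell. Of 66 ribosome biogenesis factors 22 were higher and 7 lower (43.9%), where 39.2% of all genes passed (21% higher and 18.3% lower). Their median log2 fold change was 0.13 beside 0.02 for all genes. Nolc1, a nucleolar protein that helps to bring RNA polymerase I and modification factors together, had 811 to 1320.01 on CRI-G1-RS arrays and 277 to 365 on CRI-G1-RR arrays (log2 fold change 1.58, limma adjusted p = 1.52e-07). Ltv1, a factor of small subunit export that binds near Rps3 in yeast, had 557 to 727 on CRI-G1-RS arrays and 286 to 404 on CRI-G1-RR arrays (0.88, 7.28e-06). Utp20, a scaffold of the early small subunit precursor, went the other way with 123 to 155 on CRI-G1-RS arrays and 409 to 567 on CRI-G1-RR arrays (-1.70, limma adjusted p = 4.45e-08), and its neighbours had a median of -1.10. Wdr12, a factor of large subunit maturation, was lower by a smaller amount (-0.37, limma adjusted p = 0.0187). The neighbours of Nolc1, Ltv1 and Wdr12 had medians of 0.44, 0.07 and -0.22.

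Among 14 of 18 named genes of RNA polymerase I and its factors, which transcribe ribosomal RNA, 7 were higher and 1 lower (57.1%, beside 39.2% of all genes), with a median of 0.21. Taf1b, a subunit of the promoter selectivity factor, had a log2 fold change of 0.61 (limma adjusted p = 0.00406), Polr1e 0.39 (0.00233) and the terminator Ttf1 -0.35 (0.00649). The neighbours of Taf1b, Polr1e and Ttf1 had medians of 0.04, 0.28 and -0.11. These lists were chosen with results of the same arrays known, so their direction is not independent evidence.

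**Figure D5:**
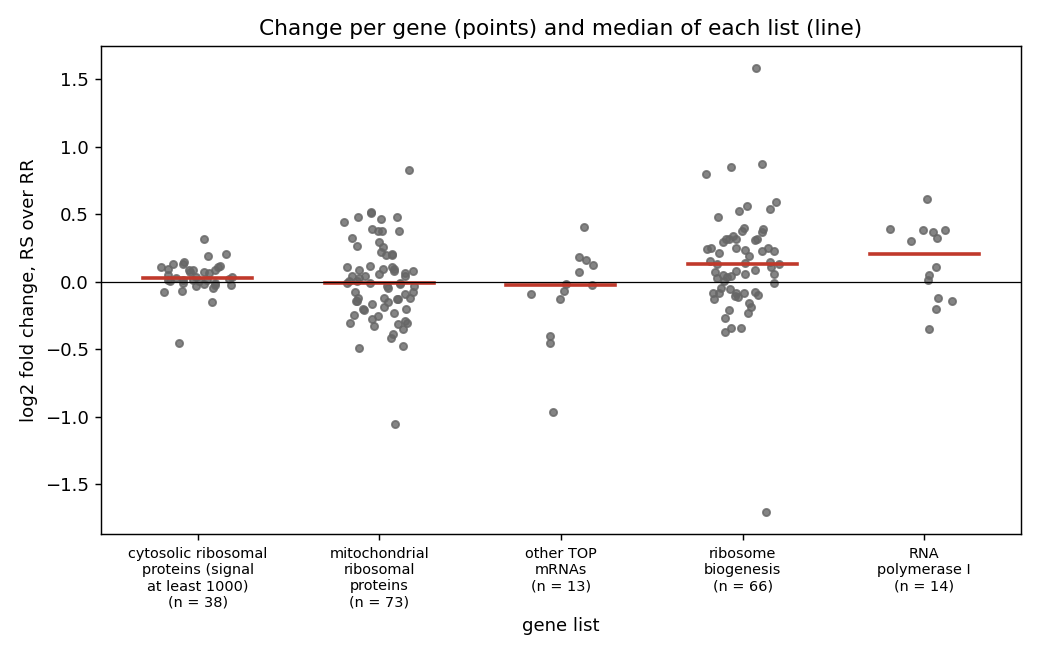
Log2 fold change, CRI-G1-RS over CRI-G1-RR, of each gene (points) and the median of each list (red line), for the 38 cytosolic ribosomal protein genes with mean signal of at least 1000 and for 4 other lists of any signal. The cytosolic genes lie closest together on this plot, with 37 of 38 under 1.25-fold, and the medians of the biogenesis and polymerase I lists are 0.13 and 0.21.

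Regulators of ribosomal protein synthesis are given in 3 lists, to be read beside the 39.2% of all genes that passed (21% higher and 18.3% lower). In the mTORC1 and S6 kinase list 5 of 16 genes were higher and 3 lower (50%). The kinase Mtor had a log2 fold change of 0.38 (limma adjusted p = 0.00445) and Rps6ka2, a kinase of the RSK family, 0.58 (9.01e-05), while Rps6kb1, the main S6 kinase, had -0.34 (0.00653) and Tsc2, which restrains mTORC1, -0.35 (5.39e-04). Larp1, the protein that binds TOP mRNAs, did not pass (-0.04, limma adjusted p = 0.745). In the Myc network 3 of 10 were higher and 1 lower (40%): Mycl had 44.3 to 68.5 on CRI-G1-RS arrays and 202 to 288 on CRI-G1-RR arrays (log2 fold change -1.90, limma adjusted p = 4.09e-08), Mlx and Mycn had 0.56 and 0.46, and Myc itself, a transcription factor that drives ribosome synthesis, had 0.40 (limma adjusted p = 2.08e-04). In the p53 arm 1 of 7 was higher and 4 lower (71.4%). Mdm2 had 528 to 585 on CRI-G1-RS arrays and 1139 to 1317 on CRI-G1-RR arrays (log2 fold change -1.11, limma adjusted p = 1.12e-08) with neighbours at -0.85. Cdkn1a, a cell cycle inhibitor induced by p53, had -0.37 (0.00444) and Ccng1 had 0.33 (0.00158). The neighbours of Cdkn1a and Ccng1 had medians of 0.28 and 0.04. For Mycl, Mlx, Mycn and Myc the neighbours' medians were -0.09, 0.01, 0.07 and 0.22. For Mtor, Rps6ka2, Rps6kb1 and Tsc2 they were 0.24, 0.04, 0.14 and -0.04.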

How the data were processed

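Total RNA of 6 CRI-G1-RS and 6 CRI-G1-RR cultures was amplified, labelled and hybridized to 1 array each. The values are linear signal intensities per probe set as deposited by the authors, with GCOS 1.4 named in the submitters' processing notes, and their trimmed means of 250.07 to 250.08 (2% trimmed) show a common scaling of the arrays. The methods describe robust multi-chip averaging, which these linear values are not. They were quantile normalized, taken as log2(signal + 16) and fitted with limma 3.58.1 in R 4.3.3 where cell type was the single variable, as in the methods. Adjustment for the false discovery rate covered all 31099 probe sets (threshold 0.05). P-values measure the spread between cultures of 2 clonal lines. Symbols came from the platform annotation (1 symbol for 20832 probe sets, several for 436, none for 9831). Lists were described by counts, with no set test. Genes with values were those of largest change past the threshold, of highest and lowest signal, paralogs, the stalk and Rpsa, and up to 2 per list and direction. Groups of 6 arrays limit precision, and arrays give no counts. The fit was tested on simulated data. The members and lists were chosen with earlier results of these data known. Alternatives covered scaling, pseudocount, filters, variance models, a replicate block and leaving out each array. Promoter windows and gene order are from RefSeq (GRCr8).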

Additional observations from a re-analysis of the deposited data

Results flagged for a closer look

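A sample far from the others of its line was looked for in 48 groups of 6 arrays, 2 for each of 24 named ribosomal protein genes, and chance alone marks about 1 in 20 such groups. There were 3. Rpl18 in CRI-G1-RS cells had a signal of 6290 in replicate 2, where the other arrays of that line had 6550 to 6700, and the gap was 0.626 of the line's whole range, just past the 95% critical value. Rps4x-ps1 in CRI-G1-RS cells had 13.6 in replicate 1 and 1.15 to 3.60 on the others. Rpl39l1 in CRI-G1-RR cells had 1.95 in replicate 2 and 5.35 to 6.80 on the others. The last 2 have very low signals.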

How the results depend on the processing

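No result changed from higher to lower past the threshold under any alternative run. The counts of genes higher moved with the scaling: 3 genes and 4 probe sets passed both with median centring and with the deposited scaling alone, where 8 and 9 did after quantile normalization, and the median log2 fold change over the 50 genes became -0.0625 and -0.0424, so its sign is not settled. Adding 64 in place of 16 gave 13 genes and 15 probe sets higher, and an intensity trend with robust variance gave 16 and 18. Requiring at least 1.5-fold left 2 genes and 2 probe sets higher and 1 and 1 lower. With the replicate number as a block 5 genes were higher, and Rpl18, Rpl24, Rpl27 and Rpl37a missed the threshold. The labels take passages in pairs but do not tie the number to a pair. Same-numbered arrays correlated at -0.04 to 0.21 in their deviations from the line means, highest with their own number for 2 of 6, so this is a hint only, and the block gave 9204 probe sets over the array where 9860 passed without it. Leaving out 1 array at a time gave 5 to 8 genes and 5 to 8 probe sets higher, 4 to 5 genes and 4 to 6 probe sets lower, and medians of 0.02 to 0.03. The count was 5 genes without CRI-G1-RS replicate 3 or 5 or CRI-G1-RR replicate 1 or 2. As alternatives added after seeing the data, beside the neighbour comparison with the other scalings, members with signals of at least 1000 alone gave 2 genes and 2 probe sets lower, since fewer were counted, and adding the probe sets of several symbols gave 16 higher and 10 lower, since more were counted. For the other moves the cause was not tested. Over single genes 493 values kept their call or stayed uncalled, 58 lost a call and 10 gained one. Genes that stayed uncalled could change sign, as Rps3a did between scalings. Rpl24 lost its call in 16 of 24 alternatives and Rpl27 in 13 of 24. Differences under about 1.25-fold in dim members were not detectable.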
